A study of Mus musculus with 9 samples.

Results

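The complement components and receptors described here are 9 genes of the 55450 counted in RNA of mouse substantia nigra: C1qa, C1qb, C1qc, C3, C4b, Cfb, C3ar1, C5ar1 and Serping1. They were taken as a list by symbol, and the list was chosen with earlier results of these data known. Bulk RNA-seq was performed on manually dissected nigral tissue 5 weeks after lentiviral transduction, with 3 libraries in each of 3 groups. The group CX3 came from male CX3CR1-CreERT2 mice, which carry a tamoxifen-inducible Cre recombinase in the Cx3cr1 locus and were given tamoxifen on 4 consecutive days after surgery, and the group DAT came from male DAT-Cre mice, which carry Cre in the locus of the dopamine transporter gene Slc6a3. Both groups were injected bilaterally with a Cre-dependent Synuclein-expressing vector under the Ef1a promoter, so that expression was directed to Cx3cr1-expressing cells (microglia and other myeloid cells) in CX3 and to dopaminergic neurons in DAT. The group CTR is labelled as GFP control, and the methods describe control mice as CX3CR1-CreERT2 animals with a Cre-dependent vector for destabilized GFP. CTR and CX3 would then share the Cx3cr1-CreERT2 allele and the tamoxifen, while DAT shares neither. The age at injection is 8 weeks in the study's results and 9 weeks for the purchased mice in its methods. The sources used here do not give the number of animals behind each library.

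Complement is a cascade of secreted proteins that tags particles, cells and synapses for uptake by phagocytes. The classical pathway starts when C1q, a hexamer built from the A, B and C chains encoded by C1qa, C1qb and C1qc, binds its target and activates the proteases C1r and C1s, which cleave C4 and C2. Cleavage of C3 is the step at which the pathways meet, factor B (Cfb) amplifies it in the alternative pathway, C3ar1 and C5ar1 encode the receptors of the small fragments C3a and C5a, and Serping1 encodes the C1 inhibitor, which blocks C1r and C1s. In the brain, microglia are the main source of C1q and carry C3ar1 and C5ar1, astrocytes are a main source of C4, and C3 is made by reactive astrocytes and myeloid cells.

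The genes lie at 6 places in the genome (GRCm38, annotation GENCODE M21), and all 9 are protein-coding and on the minus strand. C1qa (chr4:136895917-136898803, ENSMUSG00000036887.5), C1qb (chr4:136880129-136886187) and C1qc (chr4:136889804-136893065) are neighbours. C4b (chr17:34728380-34743882) and Cfb (chr17:34856374-34862518) lie in the major histocompatibility region of chromosome 17. C3 is at a separate place further along the same chromosome (chr17:57203970-57228136). C3ar1 is at chr6:122847138-122856161, C5ar1 at chr7:16246743-16259540 and Serping1 at chr2:84765387-84775444. RefSeq promoters (GRCm38.p6, 250 bases before to 50 after the start of a gene) were at hand for 5 of the 9 genes, C1qb, C1qc, C3, C3ar1 and C5ar1, and not for C1qa, C4b, Cfb and Serping1. Those of C1qb and C1qc are shown because these neighbours share their order of levels over the groups, and that of C3 because C3 is the component at the centre of the cascade. Capitals mark the motifs found, out of 7 searched on both strands.
C1qb, chr4:136886151-136886450, minus strand: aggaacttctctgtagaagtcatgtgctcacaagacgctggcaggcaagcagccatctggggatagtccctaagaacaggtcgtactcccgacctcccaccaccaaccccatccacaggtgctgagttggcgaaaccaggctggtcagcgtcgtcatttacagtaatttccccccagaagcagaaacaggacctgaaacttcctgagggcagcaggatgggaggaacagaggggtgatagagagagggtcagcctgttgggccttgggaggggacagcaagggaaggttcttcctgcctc
C1qc, chr4:136892865-136893164, minus strand: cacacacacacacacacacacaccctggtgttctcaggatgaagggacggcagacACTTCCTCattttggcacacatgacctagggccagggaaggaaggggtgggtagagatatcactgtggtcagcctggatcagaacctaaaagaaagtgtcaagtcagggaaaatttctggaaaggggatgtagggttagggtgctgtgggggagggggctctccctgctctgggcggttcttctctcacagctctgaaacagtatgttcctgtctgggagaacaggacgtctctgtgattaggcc
C3, chr17:57228087-57228386, minus strand: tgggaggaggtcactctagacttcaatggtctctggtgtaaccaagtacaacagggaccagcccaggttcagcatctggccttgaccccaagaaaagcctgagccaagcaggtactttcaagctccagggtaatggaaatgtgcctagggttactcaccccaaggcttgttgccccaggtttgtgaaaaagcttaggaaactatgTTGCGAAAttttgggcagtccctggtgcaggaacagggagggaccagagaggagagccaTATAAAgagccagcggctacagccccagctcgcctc
The PU.1 motif GAGGAAGT, named for a factor of myeloid cells, stood in the C1qc promoter on the strand opposite to the gene, from 195 to 188 bases before the start, and in 3.20% of 32851 promoters of 300 bases. The C/EBP motif TTGCGNAA stood in the C3 promoter from 45 to 38 bases before the start and in 0.798% of all promoters. The TATA motif TATAAA stood from 14 to 19 bases after the annotated start of C3 and also in the C3ar1 promoter, and in 13.6% of all promoters. The ISRE core (GAAA, any 2 bases, GAAA, in 3.44% of promoters), the GAS core TTCNNNGAA (8.30%), the Ets-IRF composite (GGAA, any 2 bases, GAAA, in 2.72%) and the NF-kappaB motif (GGGA, any 2 bases, TTCC, in 1.47%) were in none of the 5 windows. The C1qb and C5ar1 windows held none of the 7 motifs. These matches describe letters only.

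Between 21592817 and 39475428 reads were counted on genes per library, and 3 counts, taken as the smallest countable signal, equal 0.0779 to 0.151 CPM (counts per 1000000, the library size being scaled by TMM, a correction for RNA composition). The level of Cx3cr1 relative to Csf1r, another microglial gene, was 0.325 to 0.337 in CX3, 0.506 to 0.516 in CTR and 0.514 to 0.540 in DAT, so that the libraries labelled CTR did not share the lower ratio of CX3, the other group described as carrying Cre in Cx3cr1. Slc6a3 relative to Slc18a2, another dopaminergic gene, was 1.06 to 1.14 in DAT, against 1.68 to 1.73 in CTR and 1.65 to 1.79 in CX3. Markers of dopaminergic neurons, which define the nigra, were present in all groups, summing to 847 to 858 CPM in CTR, 1039 to 1057 in CX3 and 664 to 682 in DAT. The libraries labelled CTR also had the highest summed levels of B and plasma cell markers (1694 to 1744 CPM, against 309 to 335 in CX3 and 76.7 to 90.0 in DAT) and of astrocyte markers (6954 to 6956, 4439 to 4688 and 4913 to 5152 CPM), and the lowest of choroid plexus markers (34.0 to 36.6, 1467 to 1577 and 867 to 1038 CPM). Endothelial markers summed to 197.8 to 199.8 CPM in CTR, 285 to 288 in CX3 and 305 to 317 in DAT, and fibroblast markers to 215 to 219.6, 177 to 180.1 and 329.9 to 333 CPM. The mitochondrial share of counts was 4.33% to 4.64% in DAT and 6.12% to 6.83% in the other groups, and the share of reads on no gene was 4.15% to 4.31% in DAT and 6.39% to 7.73% in the others. These differences moved with the groups, and their part in the results on complement was not tested. Within groups, DAT B and CX3 A stood apart, with a median squared difference from the other libraries of their group of 5.79 to 7.43 and 3.32 to 4.09 times that of sampling, against 1.48 to 1.85 for all other pairs. Nothing in the labels says that libraries of a group came from separate animals, so the p-values measure only the spread between these libraries, which may be technical. In bulk tissue, fewer cells of a type and less RNA per cell cannot be told apart.

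To examine how the complement genes differed between groups, each group was compared with the others by edgeR's quasi-likelihood test over 20892 genes, and a gene was called at a Benjamini-Hochberg adjusted p under 0.05. Of the 9 genes, 8 passed the filter on low counts, and all 8 were lower in CX3 than in the libraries labelled CTR (16.5% of all genes tested were called lower and 14.0% higher). All 8 were lower in DAT than in CTR as well (27.9% of all genes lower, 32.0% higher), and all 8 were higher in CX3 than in DAT (27.6% of all genes higher, 31.3% lower). Each of the 8 genes had every CTR library above every CX3 library and every CX3 library above every DAT library, an order found in 5.23% of all genes tested. The median log2 fold change of the 8 was -0.57 in CX3 against CTR, -1.53 in DAT against CTR and 0.91 in CX3 against DAT, where the medians over all genes tested were -0.003, -0.004 and 0.01. None of the 8 was 2-fold lower in CX3 than in CTR (2.26% of all genes were), 7 were at least 2-fold lower in DAT than in CTR (12% of all genes) and 3 were at least 2-fold higher in CX3 than in DAT (11.0%). The comparisons share groups and are not independent of each other.

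**Figure D1:**
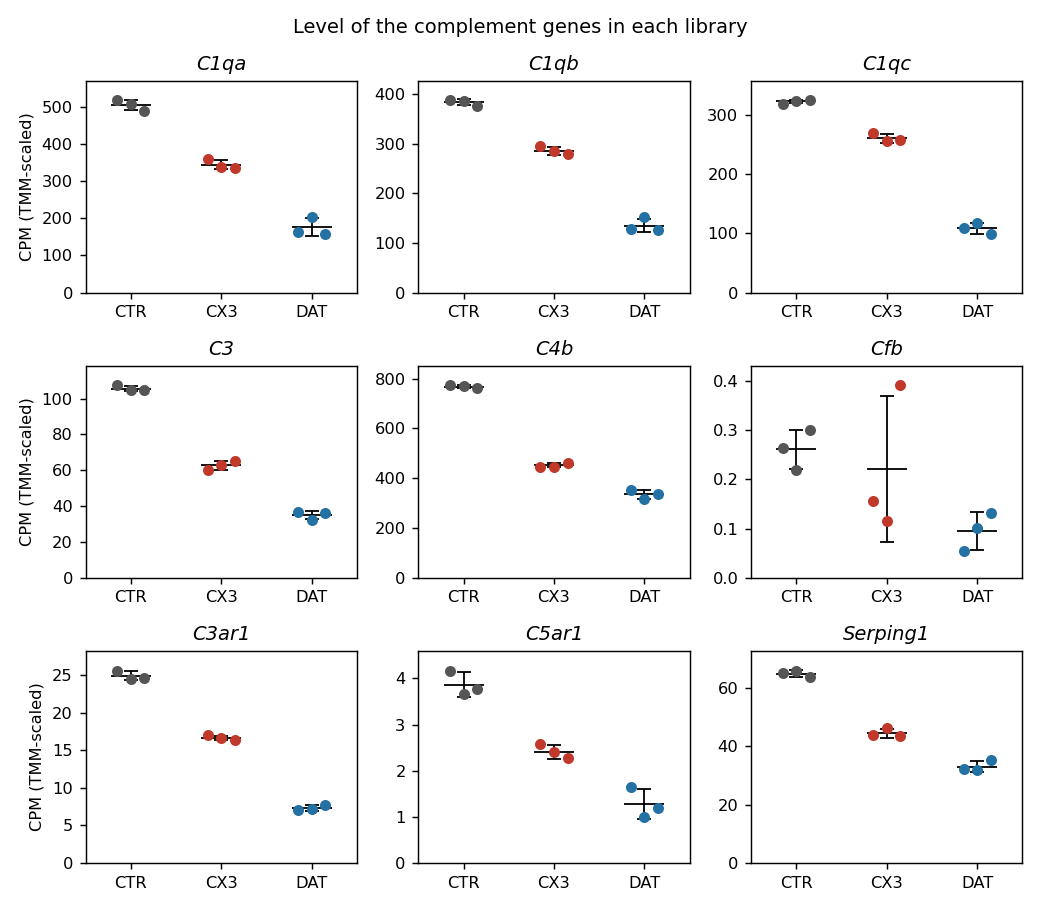
Level of each complement gene (y axis, TMM-scaled CPM, starting at 0) in the 3 libraries of CTR, CX3 and DAT (x axis). Points are libraries A, B and C from left to right, and bars give the mean ± SD. For every gene but Cfb the groups do not overlap and fall in the order CTR, CX3, DAT.

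The C1q chains start the classical pathway. C1qa had 517, 508 and 489 CPM in CTR A, B and C, 359, 338 and 335 CPM in CX3 and 164, 203 and 159 CPM in DAT. The groups did not overlap, and DAT B was the highest of its group. The mean was 504 ± 14.4 CPM in CTR, 344 ± 13.1 in CX3 and 175 ± 24.3 in DAT (SD, n = 3 libraries each). C1qa was thus 1.47-fold lower in CX3 than in CTR (log2 fold change -0.55, SE 0.07, edgeR adjusted p = 6e-05) and 2.88-fold lower in DAT than in CTR (-1.53, SE 0.07, 6.05e-10).

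C1qb, the second chain, had 387.5, 386 and 377 CPM in CTR, 294, 285 and 279 in CX3 and 127, 151 and 127 in DAT. C1qc, the third chain, had 319, 324 and 324.5 CPM in CTR, 269, 256 and 257 in CX3 and 109, 118 and 99.5 in DAT. In both genes the 3 groups were separate, and DAT B was again the highest DAT library. C1qb was 1.34-fold lower in CX3 than in CTR (log2 -0.42, SE 0.06, adjusted p = 1e-04) and 2.84-fold lower in DAT (-1.51, SE 0.06, 9.76e-11). C1qc had the smallest fall of the 8 genes in CX3, 1.24-fold (log2 -0.31, SE 0.05, adjusted p = 0.000596), and fell 2.96-fold in DAT (-1.57, SE 0.06, 2.74e-11). Between CX3 and DAT, C1qa was 1.97-fold higher in CX3 (log2 0.97, SE 0.07), C1qb 2.12-fold (1.08, SE 0.06) and C1qc 2.39-fold (1.26, SE 0.05). The largest adjusted p of the last 3 comparisons, from edgeR, was 5.45e-08.

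The chains of C1q did not keep 1 ratio. Per kilobase of exon, C1qa stood at 2.80 to 3.01 times the level of C1qc in CTR, 2.42 to 2.48 times in CX3 and 2.79 to 3.20 times in DAT. CX3 lay below both other groups without overlap, whereas CTR and DAT overlapped. C1qb per length over C1qc per length was likewise 1.93 to 1.98 in CX3, 2.06 to 2.16 in CTR and 2.07 to 2.28 in DAT. By an exact two-sided permutation test, the ratios of CX3 differed from those of CTR and of DAT with p = 0.1, the smallest value that 3 against 3 libraries can give. Over the 42 comparisons of ratios made, those without Cx3cr1 given below left out, no adjusted p was below 0.1235.

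C4b, the main mouse gene of complement C4, and C3 carry the cascade onward. C4b had 773, 769 and 763 CPM in CTR, 447, 447 and 461 in CX3 and 353, 316 and 338 in DAT. C3 had 107, 104.6 and 105 CPM in CTR, 60.3, 62.8 and 65 in CX3 and 36.9, 32.3 and 36.1 in DAT. For both genes all 3 groups were separate, and here DAT B was the lowest DAT library, where it was the highest for the C1q chains. C4b and C3 had the largest falls among the 8 genes in CX3 against CTR, 1.70-fold (log2 -0.77, SE 0.04, edgeR adjusted p = 1.27e-08) and 1.69-fold (-0.75, SE 0.05, 1.25e-07). In DAT against CTR they fell 2.29-fold (-1.19, SE 0.04, 3.45e-11) and 3.00-fold (-1.59, SE 0.06, 2.52e-11).

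C4b and C3 thus moved by like amounts in CX3 but not in DAT. C4b stood at 7.20 to 7.35 times the CPM of C3 in CTR and at 7.09 to 7.41 times in CX3, ranges that overlap (exact permutation p = 0.6, two-sided, 3 against 3). In DAT the ratio was 9.38 to 9.78, above every library of both other groups (exact permutation p = 0.1 for each, the smallest possible). Between CX3 and DAT, C4b was 1.35-fold higher in CX3 (log2 0.43, SE 0.04, edgeR adjusted p = 9.91e-07) and C3 1.78-fold higher (0.83, SE 0.06, 1.5e-08). Part of C4b cannot be counted by unique reads: 22.3% of the windows of 76 bases, the read length, in its transcripts are also found in C4a, its near-identical neighbour, and none in the other 7 genes tested are found elsewhere. C4a held 0.203% to 0.272% of the summed C4a and C4b levels in CTR and CX3, and 0.127% to 0.171% in DAT, so the reads that could be assigned were almost all of C4b.

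Cfb, factor B, had 8, 8 and 9 counts in CTR, 6, 4 and 15 in CX3 and 2, 2 and 3 in DAT, which is 0.0548 to 0.391 CPM. It did not pass the filter on low counts, and CX3 overlapped both other groups. Of its exon bases, 79.5% are shared with Gm20547, a readthrough gene on the same strand that was listed at 0 in all 9 libraries, and reads on bases of 2 genes were left out of the counts as ambiguous, so the deposited count rests on the bases that Cfb does not share. Without the filter, edgeR gave a log2 fold change of -0.18 (SE 0.51, adjusted p = 0.847) in CX3 against CTR, -1.48 (SE 0.65, 0.069) in DAT against CTR and 1.31 (SE 0.65, 0.136) in CX3 against DAT. CTR and DAT did not overlap, and in the fit without CX3 B, where Cfb passed the filter, it was called lower in DAT than in CTR (-1.49, SE 0.59, adjusted p = 0.0449) and higher in CX3 than in DAT (1.57, SE 0.61, adjusted p = 0.0459). These calls rest on 2 or 3 counts in each DAT library and were not made in the other fits that tested Cfb.

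The receptor genes followed the order of the components. C3ar1, the receptor of C3a, had 25.6, 24.5 and 24.6 CPM in CTR, 17.0, 16.6 and 16.4 in CX3 and 7.10, 7.14 and 7.77 in DAT. It had the largest fall of the 8 genes in DAT against CTR, 3.40-fold (log2 -1.77, SE 0.06, edgeR adjusted p = 3.7e-11), and fell 1.49-fold in CX3 against CTR (-0.58, SE 0.06, 3.33e-06). It was 2.28-fold higher in CX3 than in DAT (1.19, SE 0.07, 2.39e-09).

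C5ar1, the receptor of C5a, was the lowest of the 8 genes, with 127, 133 and 113 counts in CTR, 99, 83 and 87 in CX3 and 60, 20 and 27 in DAT. These correspond to 4.17, 3.65 and 3.77 CPM, 2.57, 2.40 and 2.27 CPM, and 1.645, 1.01 and 1.185 CPM. The groups did not overlap, and DAT A was the highest of the DAT libraries. C5ar1 was 1.60-fold lower in CX3 than in CTR (log2 -0.68, SE 0.15, edgeR adjusted p = 0.00299) and 2.89-fold lower in DAT (-1.53, SE 0.17, 2.68e-06). It was 1.81-fold higher in CX3 than in DAT (0.85, SE 0.18, 0.000843). In counts of the forward strand alone the difference between CX3 and CTR kept its direction without passing the test (log2 -0.56, adjusted p = 0.0746).

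Serping1, the inhibitor of C1r and C1s, had 65.2, 65.9 and 63.6 CPM in CTR, 43.8, 46.2 and 43.3 in CX3 and 32.1, 31.7 and 35.15 in DAT. It was 1.46-fold lower in CX3 than in CTR (log2 -0.55, SE 0.05, edgeR adjusted p = 2.33e-06) and 1.97-fold lower in DAT (-0.98, SE 0.05, 1.83e-09), which was the smallest fall of the 8 genes in DAT. It was 1.35-fold higher in CX3 than in DAT (0.43, SE 0.05, 8.19e-06), close to the difference of C4b.

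**Figure D2:**
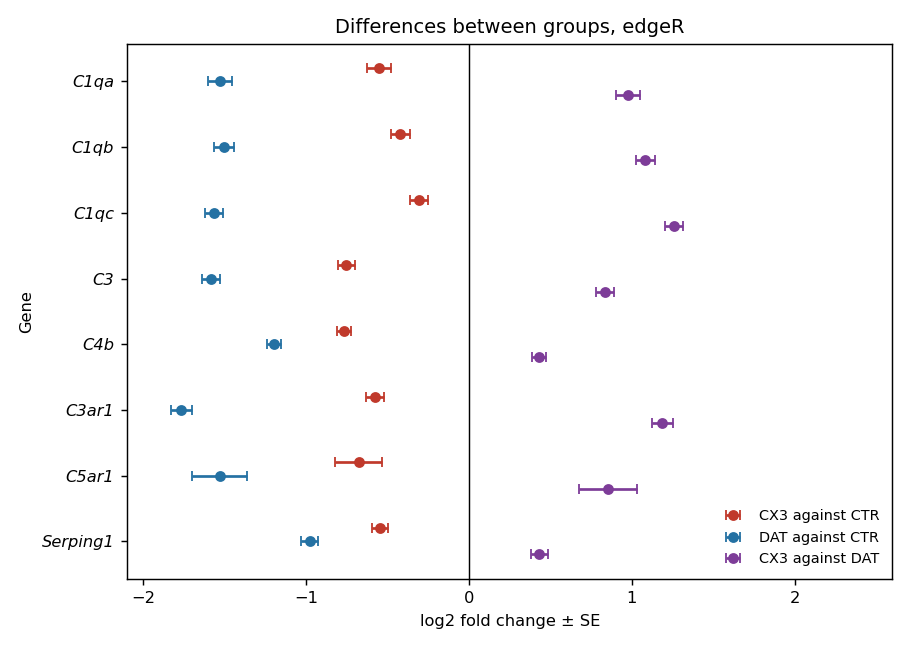
Log2 fold change ± SE (x axis) of the 8 genes tested (y axis) in CX3 against CTR (red), DAT against CTR (blue) and CX3 against DAT (purple), from edgeR with 3 libraries a group. All values of the comparisons with CTR are below 0, and the spread between genes runs from -0.77 to -0.31 in CX3 and from -1.77 to -0.98 in DAT.

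To compare the genes with each other, CPM were divided by exon length. In CTR the mean level per kilobase was 485 for C1qa, 352 for C1qb, 167 for C1qc and 135 for C4b, followed by Serping1 with 27.9, C3 with 20.55, C3ar1 with 5.79 and C5ar1 with 1.503. The order was the same in CX3, from 331 for C1qa to 0.938 for C5ar1. In DAT, C4b (55.4 to 62.0 CPM per kilobase) and C1qc (51.5 to 61.1) overlapped, and the rest kept their order.

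Microglial markers were lower in both groups too. Of the 12 microglial markers, 8 were lower in CX3 than in CTR and none higher, and 10 were lower in DAT and 1 higher, with a median log2 fold change of -0.53 and -0.69. None of the 12 was at 0 in any group, and their summed level was 946 to 956 CPM in CTR, 655 to 662 in CX3 and 620 to 634 in DAT. Per 100 CPM of summed microglial markers, the 3 C1q chains together had 124 to 129 CPM in CTR, 132 to 140 in CX3 and 62.2 to 75.0 in DAT. Relative to these markers C1q was thus lower in DAT than in every library of both other groups, and it was not lower in CX3 than in CTR. Because the CX3 mice carry Cre in one of the markers, the sum was repeated without Cx3cr1, and C1q was then 139 to 145 in CTR, 141 to 150 in CX3 and 72.2 to 85.6 in DAT, with CTR and CX3 overlapping (exact permutation p = 0.5, two-sided, 3 against 3).

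C3ar1 had 2.57 to 2.71 CPM per 100 CPM of microglial markers in CTR, 2.48 to 2.57 in CX3, just below CTR, and 1.12 to 1.25 in DAT. C3 had 11.0 to 11.4, 9.13 to 9.82 and 5.12 to 5.82, and C4b had 79.8 to 81.7, 67.7 to 69.7 and 50.1 to 55.6, so that both were lower in CX3 than in CTR on this scale as well. Without Cx3cr1 in the sum, C3ar1 had 2.88 to 3.04 CPM in CTR, 2.66 to 2.75 in CX3 and 1.29 to 1.46 in DAT. C3 and C4b also stayed lower in CX3 than in CTR without Cx3cr1. Relative to 100 CPM of summed astrocyte markers, C4b was 11.0 to 11.1 in CTR, 9.65 to 10.1 in CX3 and 6.43 to 6.87 in DAT. Groups that did not overlap gave an exact permutation p = 0.1, the smallest this number of libraries allows. Of the 7 astrocyte markers, 7 were lower in CX3 and 3 in DAT than in CTR. They did not fall alike, so the ratio of C4b to their sum depends on the markers chosen. Their median log2 fold change was -0.623 in CX3 and -0.105 in DAT. Gfap, the marker with the highest level in CTR, fell 2.01-fold in CX3 and 2.22-fold in DAT. C4b fell 1.70-fold and 2.29-fold, which is less than Gfap in CX3 and close to it in DAT. The ratio of C4b to Gfap alone was not tested.

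**Figure D3:**
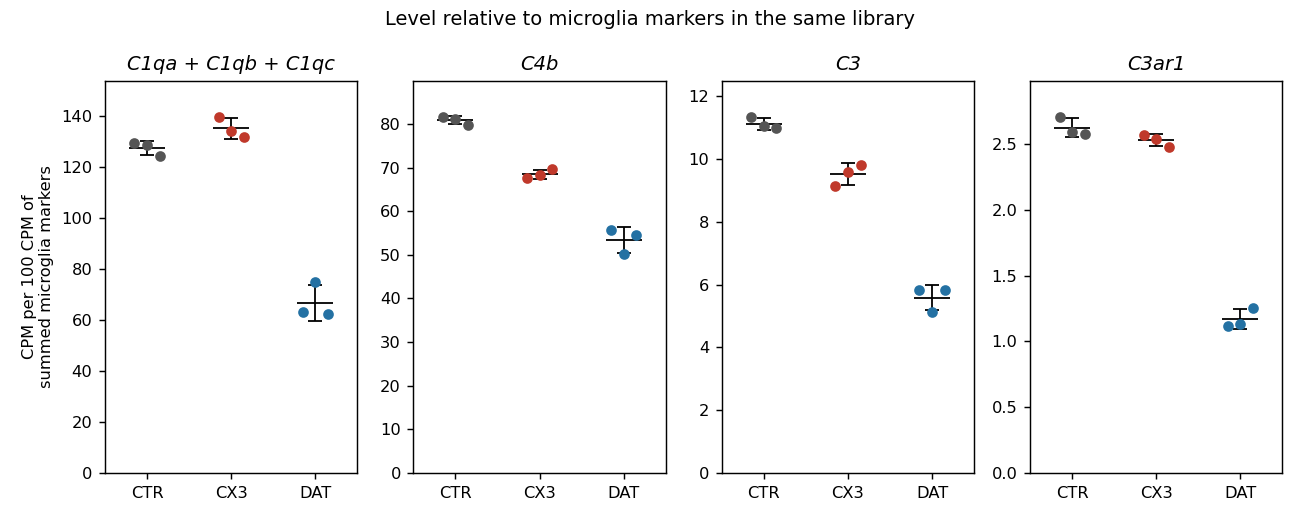
CPM of the summed C1q chains, C4b, C3 and C3ar1 per 100 CPM of the 12 summed microglial markers in the same library (y axes, starting at 0) in CTR, CX3 and DAT. Points are libraries and bars the mean ± SD. Summed C1q has 124 to 129 in CTR, 132 to 140 in CX3 and 62.2 to 75.0 in DAT. CTR and CX3 do not overlap in any panel, with C1q higher in CX3 and C4b, C3 and C3ar1 lower. Without Cx3cr1 in the sum, C1q overlaps between CTR and CX3.

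The summed levels of some markers of blood-borne cells and of interferon response genes had the order CTR, CX3, DAT as well, but their members did not all move alike in CX3. The summed level of 7 monocyte and neutrophil markers was 52.0 to 52.5 CPM in CTR, 25.9 to 26.7 in CX3 and 7.05 to 7.60 in DAT. Ly6c2 alone had 38.1 to 39.8 CPM in CTR, 8.10 to 9.21 in CX3 and 2.33 to 2.46 in DAT. The lower sum in CX3 than in CTR rested on Ly6c2. Ly6g was at 0 in all DAT libraries but was also below 3 counts in CTR (1 to 2) and CX3 (0 to 1). Of the 7 markers, all 5 that were tested were lower in DAT than in CTR, whereas in CX3 3 were lower and the monocyte receptor Ccr2 was higher (log2 1.35, edgeR adjusted p = 9.13e-07). The 7 T cell markers summed to 51.7 to 54.0, 43.3 to 46.0 and 13.1 to 14.7 CPM, with 3 lower in CX3 and 7 lower in DAT than in CTR. Erythroid markers did not have this order, with 242 to 267 CPM in CTR, 94.4 to 108 in CX3 and 187 to 266 in DAT. The 12 interferon response genes summed to 1179 to 1192, 962 to 987 and 382 to 417 CPM, and all 12 were lower in DAT than in CTR, while 7 were lower and 5 higher in CX3 than in CTR. Perivascular macrophage markers summed to 24.6 to 25.9 CPM in CTR and 25.2 to 27.2 in CX3, which overlap, with 1 of 5 higher and 1 lower in CX3, and to 32.4 to 34.1 CPM in DAT, with 3 of 5 higher than in CTR. Their part in the complement results was not tested.

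Among 12609 genes with a mean of at least 5 CPM, the genes most like C1qa over the 9 libraries, by the root mean square difference of centred log2(CPM + 0.5), were Fcgr1, an activating Fc receptor (0.058), Ctss, a lysosomal protease of myeloid cells (0.068), and the chemokine Ccl5 (0.069). The member C1qb lay at 0.063 from C1qa and C1qc at 0.14. The genes most like C3 were Trim34a (0.052), Samd9l (0.067) and Trim30d (0.071), and those most like C4b were Dock2, a regulator of leukocyte migration (0.082), Irf7, a transcription factor of the interferon response (0.092), and Trp53inp1 (0.093). The member nearest to C4b was Serping1, at 0.12, and the nearest to C3 was C3ar1, at 0.14. The 9 libraries come from 3 groups, so that the likeness mostly follows the group levels.

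The remaining genes of the complement system, 47 in a list of 4 classes, did not move as one. Of the 32 that passed the filter, 10 were lower and 6 higher in CX3 than in CTR (16.5% and 14.0% of all genes tested). In DAT against CTR, 17 were lower and 8 higher (27.9% and 32.0% of all genes). In CX3 against DAT, 11 were higher and 7 lower (27.6% and 31.3% of all genes). The counts by class given below are set beside the same shares. The median log2 fold change of the 32 was -0.07, -0.46 and 0.32 in these comparisons, against -0.003, -0.004 and 0.01 over all genes tested. Scaled by library size alone, 17 were lower and 3 higher in DAT than in CTR, and 19 were higher and 5 lower in CX3 than in DAT. With the counts of a single strand, only 9 were called in CX3 against CTR. The stepwise order CTR, CX3, DAT without overlap was found in 5 of the 32, Masp2, C1s2, Itgb2, C4a and Cfp (5.23% of all genes tested).

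In the class of the classical and lectin pathways, 11 of 16 genes were tested, with 3 lower and 2 higher in CX3 and 7 lower and 3 higher in DAT than in CTR. C1s1, which encodes the protease C1s, was 4.13 to 4.61 CPM in CTR, 6.21 to 7.22 in CX3 and 1.95 to 2.41 in DAT. It thus rose in CX3 (log2 0.63, SE 0.11, edgeR adjusted p = 0.000485) and fell in DAT (-1.02, SE 0.13, 1.1e-05), although 18.4% of its exon bases are shared with an antisense gene. C4a had 49 to 68 counts in CTR, 36 to 47 in CX3 and 8 to 22 in DAT, and fell in both groups (-0.71 and -1.73), though in CX3 it did not pass with reverse-strand counts (-0.32, adjusted p = 0.522). Colec11, a soluble lectin that starts the lectin pathway, had 11 to 38 counts per library and was higher in both groups (1.03, adjusted p = 0.00791, and 1.02, adjusted p = 0.00514), but it passed in neither with counts of a single strand (0.87 to 1.14).

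C2, the partner of C4 in the C3 convertase, fell in CX3 (log2 -0.70, adjusted p = 0.0141) and DAT (-1.09, adjusted p = 0.000598) against CTR in edgeR. It shares 42.8% of its exon bases with Gm20547 on the same strand and 4.16% with Zbtb12 on the other strand. C2 passed in neither comparison with single-strand counts, where the log2 fold change in DAT against CTR was -0.30 (reverse strand) and -0.40 (forward strand). Those counts, 73 on each strand in CTR A against 86 for both strands together, can include reads of Zbtb12. In CX3 against CTR, C2 did not pass without CTR A (-0.64) or CX3 C (-0.52) either. C1s2, a copy of the C1s gene, had 1 to 23 counts per library and fell in DAT (-2.25, SE 0.47, adjusted p = 0.000937). In CX3 its log2 fold change was -1.07 (adjusted p = 0.0395), and it did not pass in 8 alternatives, among them those without CTR A, CTR B, CX3 A, CX3 B or DAT C (-1.11 to -0.82). Masp2, a protease of the lectin pathway, had 2 to 23 counts per library and fell in DAT (-1.89, SE 0.41, adjusted p = 0.00106), and 54.9% of its exon bases are shared with Tardbp on the other strand. With counts of a single strand Masp2 held far more reads, 561 forward and 595 reverse in CTR A against 23 for both strands together. As the strands were near even in these libraries, single-strand counts can include reads of Tardbp on the shared bases. The single-strand log2 fold changes, -1.004 (reverse) and -0.97 (forward), thus do not isolate Masp2.

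Of the alternative and terminal pathways, 5 of 9 genes were tested. Cfp, which encodes properdin, the stabilizer of the alternative C3 convertase, fell in DAT from 10.7 to 12.8 CPM in CTR to 4.58 to 4.74 (log2 -1.33, SE 0.09, edgeR adjusted p = 2.4e-08). In CX3 it had 9.61 to 10.3 CPM (-0.24, adjusted p = 0.0344), a difference that did not pass in 11 alternatives, among them those without CTR A, CTR C or any 1 of the CX3 libraries (-0.27 to -0.18). The other 4 genes tested, which encode components of the terminal pathway, passed in neither comparison with CTR. Cfd, which encodes factor D, had 7 to 10 counts in the CTR libraries and none in the CX3 and DAT libraries, where 3 counts equal 0.0779 to 0.151 CPM, and was not tested.

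Among 10 regulators tested of 15, 3 were lower and 3 higher in CX3, and 4 were lower and 4 higher in DAT than in CTR. Clu, which encodes clusterin, a secreted chaperone that blocks the terminal complex, was the most abundant, with 1891 to 1947 CPM in CTR, 683 to 717 in CX3 and 1090 to 1206 in DAT. It fell in both groups, 2.72-fold in CX3 (log2 -1.44, SE 0.04, edgeR adjusted p = 7.9e-12) and 1.69-fold in DAT (-0.75, SE 0.04, 2.2e-09), so that CX3, not DAT, was the lowest group. Vtn, which encodes vitronectin, another terminal inhibitor, fell in CX3 from 175 to 185 CPM in CTR to 83.8 to 91.2 (-1.04, SE 0.05, 1.62e-09) and had 201 to 215 CPM in DAT (0.20, SE 0.05, 0.00217), where the difference did not pass when libraries were scaled by size alone (0.06, adjusted p = 0.338) or with reverse-strand counts (0.09, adjusted p = 0.168). Cd46, a membrane cofactor for the breakdown of C3b, fell in DAT from 6.80 to 8.54 CPM in CTR to 2.72 to 3.60 (-1.38, SE 0.13, 5.21e-07). In CX3, with 9.30 to 10.4 CPM, its log2 fold change of 0.30 (adjusted p = 0.0489) did not pass in 11 alternatives, among them those without any 1 of the CTR or CX3 libraries (0.20 to 0.35) and those with counts of a single strand (0.04 in each). Of its exon bases, 14.2% are shared with A330023F24Rik on the other strand. Single-strand counts of Cd46 can include reads of that gene (685 forward and 620 reverse in CTR A, against 258 for both strands together).

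Of the other receptors, 6 of 7 were tested, with 3 lower and 1 higher in CX3, and 5 lower and 1 higher in DAT than in CTR. Itgb2, the shared beta chain of complement receptors 3 and 4, had 46.9 to 47.9 CPM in CTR, 35.4 to 38.3 in CX3 and 20.2 to 20.7 in DAT, and fell in both (log2 -0.36, SE 0.05, edgeR adjusted p = 6.22e-05, and -1.21, SE 0.05, 1.63e-10). Itgax, the alpha chain of complement receptor 4, had 20 to 21.5 CPM in CTR, 20.8 to 22.3 in CX3 and 7.04 to 7.59 in DAT. It fell in DAT (-1.48, SE 0.07, 3.53e-10), and its log2 fold change in CX3 was 0.06 (SE 0.06, 0.462). Between CX3 and DAT, Itgax was 2.90-fold higher in CX3 (1.54, SE 0.07, 2.21e-10).

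**Figure D4:**
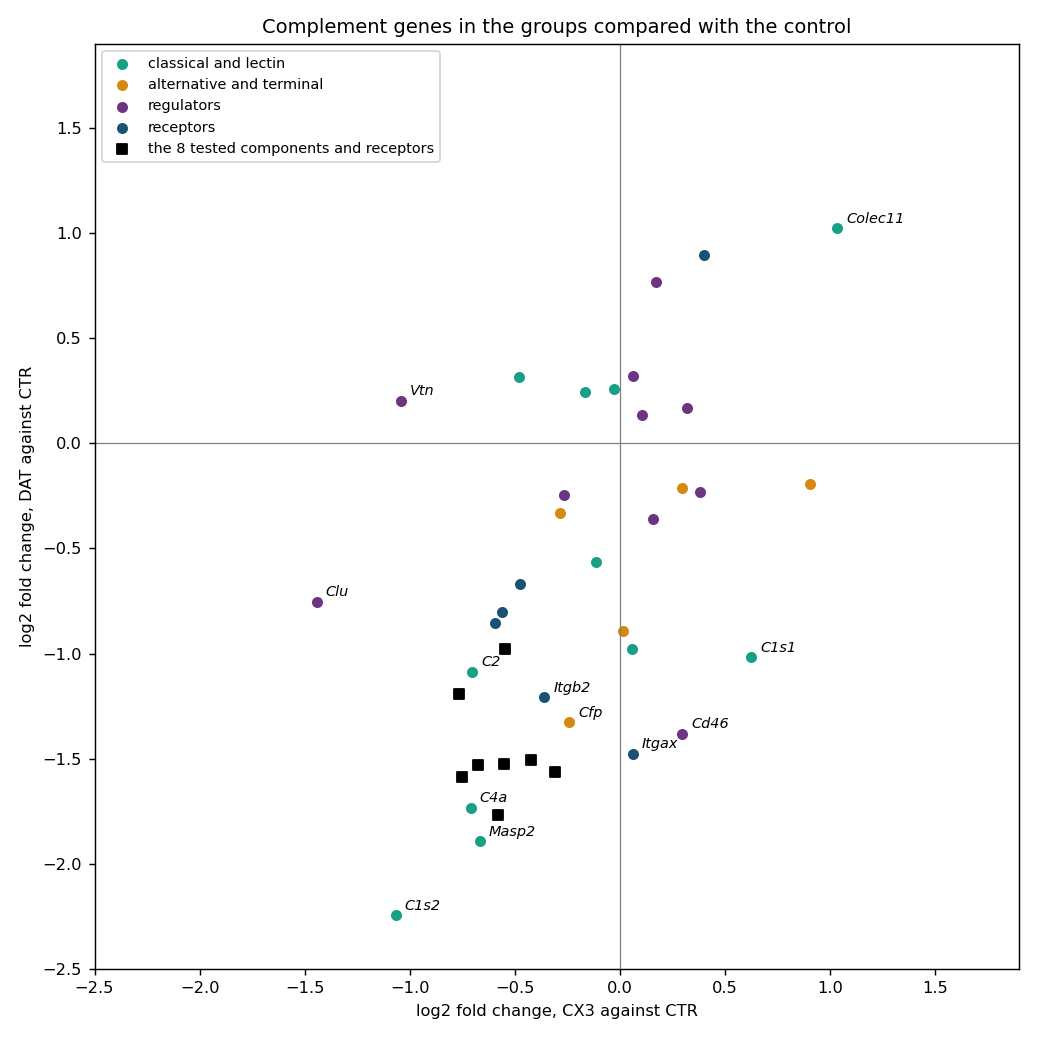
Log2 fold change in CX3 against CTR (x axis) and in DAT against CTR (y axis) of the 8 complement components and receptors tested (black squares) and of 32 further complement genes, coloured by class. Both axes use the same CTR libraries. The squares lie together at the lower left, whereas Clu, C1s2 and Vtn lie further to the left and C1s1, Cd46 and Itgax have values above 0 on the x axis and below 0 on the y axis.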

How the data were processed

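RNA of nigral tissue was sequenced in 9 libraries, 3 per group, and samples were grouped by their labels. The authors trimmed reads with Trimmomatic and aligned them to mm10 with STAR, and they deposited counts per gene without normalization. The methods name featureCounts, but the columns of the files are those of STAR's quantification by gene (versions are not given in the sources used here). The kit is described as stranded, but the reverse strand held 49.79% to 49.88% of strand-specific counts, so counts of both strands together were used. Rows for unmapped, multimapping, no-feature and ambiguous reads, 30.47% to 35.92% of reads, were left out.

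Counts were fitted with edgeR 4.0.16 in R 4.3.3 (filterByExpr, TMM, quasi-likelihood test, all 9 libraries in 1 fit, Benjamini-Hochberg adjustment over 20892 genes, called at 0.05). The SE is the absolute log2 fold change divided by the square root of F. DESeq2 1.42.0, other scalings, filters and strands, a replicate block and leaving out each library were the alternatives. Ratios within libraries were compared with exact permutation tests in scipy 1.17.1 (Python 3.11.15). The edgeR step was tested on simulated data. All symbols were matched to GENCODE M21.

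The members, lists and tests were chosen with earlier results of these data known. The 9 members are always given. Of the other complement genes, the 12 with the largest absolute log2 fold change against CTR among those called are named with values, and for C1qa, C3 and C4b the 3 genes most alike. Names given beyond this rule (the genes with the stepwise order, Cfd) were chosen after their values were seen.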

Additional observations from a re-analysis of the deposited data

How the results depend on the processing

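The 8 complement components and receptors tested were called in the same direction in all 3 comparisons under DESeq2, other scalings, filters and strands, a fit of only the groups compared, a replicate block and without each library in turn, except C5ar1 in CX3 against CTR with forward-strand counts (7 genes called). Libraries with the same letter do not pair (correlations of deviations from -0.372 to 0.158), and under the replicate block 8, 8 and 8 of these genes, 13, 25 and 18 of the other complement genes and 5805, 12144 and 11955 of all genes were called, against 6367, 12520 and 12311 without it. Scaling by library size alone shifted the median log2 fold change of all genes by 0.0467, -0.147 and 0.193, and the share of calls that were higher went from 45.9% to 58.9% in CX3 against CTR, from 53.4% to 37.8% in DAT against CTR and from 46.8% to 66.7% in CX3 against DAT. Of the other complement genes, 16 were called in CX3 against CTR, but 9 with reverse-strand counts (28 tested) and 9 with forward-strand counts (27 tested). In CX3 against DAT, 2 genes that were not called changed sign: C2 (0.38) to -0.13 with reverse-strand and -0.024 with forward-strand counts, and Colec11 (0.01) to -9e-04 with DESeq2, -0.0085 with the replicate block, and between -0.16 and 0.21 over the fits without 1 library (-0.05 without CX3 B, -0.16 without DAT A). In the same comparison C2 was called with library size alone (0.58) and without CX3 C (0.59), and C1s2 (1.18) with library size alone (1.37, adjusted p = 0.0357) and without CX3 A (1.42, 0.0437). Cfb was called only without CX3 B, in DAT against CTR and CX3 against DAT (9 genes each). The causes were not tested. The ratios without Cx3cr1 were added after the data were seen. Depth limits Cfb, Cfd, C1s2 and Masp2. Counts of both strands together also leave out reads on exon bases that Cfb and Masp2 share with other genes. Single-strand counts of C2, Cd46 and Masp2 can include reads of genes on the other strand that share their exon bases.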
